A study of Glycine max with 2 samples.

Results

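The nucleic acid binding genes described here are differentially methylated genes (DMGs) between the soybean line NJCMS5A and its maintainer NJCMS5B. A DMG is a gene that overlaps a differentially methylated region (DMR) in its promoter or gene body. Members were the DMGs that the deposited Gene Ontology (GO) table lists under nucleic acid binding. The rule also named genes to be left out, among them those of the mediator complex, but 0 of the listed genes were among them. This gave 69 of 485 DMGs, and 334 DMGs had any GO term. The members carried 109 of the 3527 DMRs, in 110 pairs of DMR and gene, because Glyma.08G075600 and Glyma.08G075700 shared a DMR. Methylation values played no part in the choice of members beyond the authors' call of the DMRs.

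NJCMS5A carries cytoplasmic male sterility, and its fertile maintainer NJCMS5B was the recurrent parent in its breeding. At full bloom, buds of several sizes were pooled for either line, and their genomic DNA gave 1 library for whole-genome bisulfite sequencing. Bisulfite turns unmethylated cytosines into uracil, so the methylation level of a DMR is the share of its cytosine calls still read as cytosine. With 1 library per line, the lines, the plants pooled and the libraries cannot be told apart, and no difference has a replicate check. Levels were given over all cytosines of a DMR, with no split by sequence context in the table used here.

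Proteins that bind nucleic acids read, copy, unwind, cut, repair and translate the genetic material. Transcription factors, polymerases, helicases, topoisomerases, nucleases, histones and ribosomal proteins belong to them. In plants, cytosines are methylated in CG, CHG and CHH contexts, and methylation of a promoter often goes with low transcription, whereas methylation within a gene body is also found in expressed genes. Expression was not analysed here.

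The 109 DMRs of the nucleic acid binding genes held 795093 cytosine calls in NJCMS5A and 695863 in NJCMS5B. Their median depth per cytosine was 11.8 in NJCMS5A and 11.5 in NJCMS5B, and over all DMRs it was 11.3 in NJCMS5A and 10.7 in NJCMS5B. A DMR had at least 216 calls in NJCMS5A and at least 136 in NJCMS5B. Levels are followed by their 95% Wilson interval, and differences by a 95% Newcombe interval. Both cover counting error only, since neighbouring calls of a read depend on each other. Some shares of genes, DMRs or pairs also carry a 95% Wilson interval. It treats the members as independent, although they share libraries and some share DMRs and are not replicates, so it only describes the count. The DMRs had been called by the authors on this same contrast, so tests on them describe the 2 libraries and serve as support for nothing. Each DMR was tested with Fisher's exact test (two-sided), and p was adjusted over all 3527 DMRs by the Benjamini-Hochberg method. All 109 member DMRs passed an adjusted p of 0.05, as did 100% of all DMRs. When each cytosine was counted 1 time whatever its depth, 104 of the 109 passed (95.4%), beside 82.8% of all DMRs and 92.5% of the DMRs annotated to a gene.

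More nucleic acid binding genes were hypo-methylated than hyper-methylated in NJCMS5A. In 36 of the 69 genes every DMR had a lower level in NJCMS5A (52.2%), in 14 every DMR had a higher level (20.3%), and 19 methylation-unstable genes had DMRs of both directions (27.5%). Over all DMGs, 57.9% were hypo-methylated, 18.1% hyper-methylated and 23.9% had both directions. Among the DMGs with a GO term, 58.4% were hypo-methylated. The members therefore stood near the DMGs at large. Of the 109 DMRs, 64 were lower in NJCMS5A and 45 were higher. The hypo-methylated share was 58.7% (49.3 to 67.5), beside 55.8% of all DMRs and 64.8% of those annotated to a gene, and the other 44.2% of all DMRs were hyper-methylated.

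The differences were mostly small. The levels differed by a median of 12.3 percentage points, with a range of 10.03 to 46.4, and over all DMRs the median was 16.7 points and over the gene-annotated ones 13.2. A difference of at least 20 points was present in 13 member DMRs (11.9%), against 33.9% of all DMRs and 16.0% of those annotated to a gene. In the 64 hypo-methylated DMRs the median level was 4.21% in NJCMS5A and 18.9% in NJCMS5B. In the 45 hyper-methylated DMRs it was 17.8% in NJCMS5A and 4.69% in NJCMS5B. In 21 DMRs (19.3%) 1 library had a level of at most 1%, which was NJCMS5A in 10 and NJCMS5B in 11. The lowest of these levels were of the size of the unconverted share in the study's report, which was larger in NJCMS5B. They were not corrected for it and cannot be told apart from incomplete conversion. The background share was 10.2% of all DMRs and 22.8% of the gene-annotated ones.

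**Figure D1:**
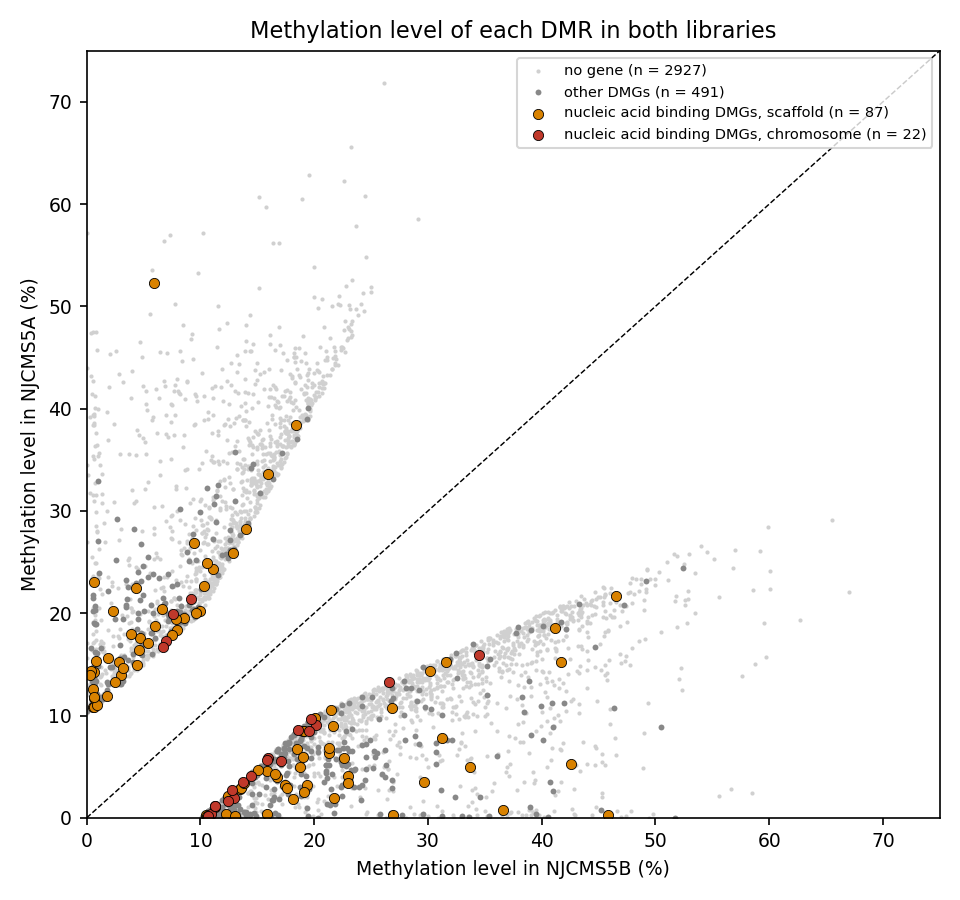
Methylation level (%) of each DMR in NJCMS5A (vertical axis) against NJCMS5B (horizontal axis), with 1 point per DMR and the line of equal levels dashed. Coloured points are the 109 DMRs of nucleic acid binding genes, 22 on chromosomes and 87 on scaffolds, and grey points are the other DMRs. The empty band around the line holds no DMR because every called DMR differed by at least 10 points. Member DMRs lie on both sides, with 64 below the line, and most of those on chromosomes lie below it.

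The directions of the members differed by where their DMRs lay. The DMRs of 22 genes lay on assembled chromosomes and those of the other 47 on unplaced scaffolds. On chromosomes, 19 of 22 genes were hypo-methylated in NJCMS5A (86.4%, 66.7 to 95.3), 3 were hyper-methylated and 0 had both directions. The background share of hypo-methylated genes among DMGs of the chromosomes was 78.0%, and 0.709% of them had both directions. On scaffolds, 17 of 47 genes were hypo-methylated (36.2%, 23.97 to 50.5), 11 hyper-methylated and 19 of both directions, and among all DMGs of the scaffolds 49.7% were hypo-methylated and 33.4% had both directions. No member DMR of the chromosomes differed by 20 points or more, and their median difference was 10.4 points. On scaffolds the median was 13.1 points, and 13 of 87 DMRs reached 20 points. Over all DMRs the median was 10.9 points on chromosomes and 17.6 points on scaffolds. The upper quartile of all DMRs was 12.6 points on chromosomes and 22.6 points on scaffolds. The gap in size was thus present in the DMRs at large, and scaffold members had a smaller median than all scaffold DMRs. Scaffold_21 carried 34 of the member DMRs and 18 of the member genes, and its share of all DMRs and DMGs was not counted.

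Promoter DMRs were the most frequent kind. A promoter here is the region upstream of a transcription start site that the authors' annotation assigns to the gene. Of the 69 genes, 50 had a DMR in the promoter (72.5%), beside 68.0% of all DMGs. In 35 of these 50 genes a promoter DMR was lower in NJCMS5A and in 23 a promoter DMR was higher, with 8 genes counted in both, and the background shares were 71.2% and 41.5%. Exon DMRs were found in 37 genes (53.6%, beside 57.5% of DMGs), intron DMRs in 32 (46.4%, beside 52.4%), 5′UTR DMRs in 24 (34.8%, beside 38.1%) and 3′UTR DMRs in 10 (14.5%, beside 26.0%). Of the 24 genes with a 5′UTR DMR, 19 had a lower level there in NJCMS5A (79.2%, beside 83.2% of DMGs with such a DMR) and 5 a higher level, and no gene had both. A lower level in NJCMS5A was present in 30 of the 37 genes with an exon DMR (81.1%, beside 85.7%), in 27 of the 32 with an intron DMR (84.4%, beside 84.6%) and in 8 of the 10 with a 3′UTR DMR (beside 79.4%).

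The members were then grouped by the roles that the GO table gives them, in which a gene may hold several. DNA binding was listed for 47 genes and RNA binding for 19, with 4 genes in both, which were the helicases Glyma.06G202200, Glyma.18G079700 and Glyma.18G186900 and the RNA polymerase gene Glyma.08G241400. The remaining 7 genes were in neither list. Of these, 5 were listed for zinc ion binding, 1 for ribonuclease H activity and 1 for protein kinase activity. Of the DNA binding genes 24 were hypo-methylated in NJCMS5A (51.1%), 9 were hyper-methylated and 14 had both directions. Of the RNA binding genes 12 were hypo-methylated (63.2%), 2 were hyper-methylated and 5 had both directions. Over all DMGs the shares were 57.9% hypo-methylated, 18.1% hyper-methylated and 23.9% of both directions, and the counts of the smaller groups below are set against the same shares. Some members also carried terms named for animals, fungi or viruses, such as viral capsid for Glyma.19G074500 and aflatoxin biosynthesis for Glyma.10G220800. The roles given here are therefore the table's annotation and not a measured function.

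**Figure D2:**
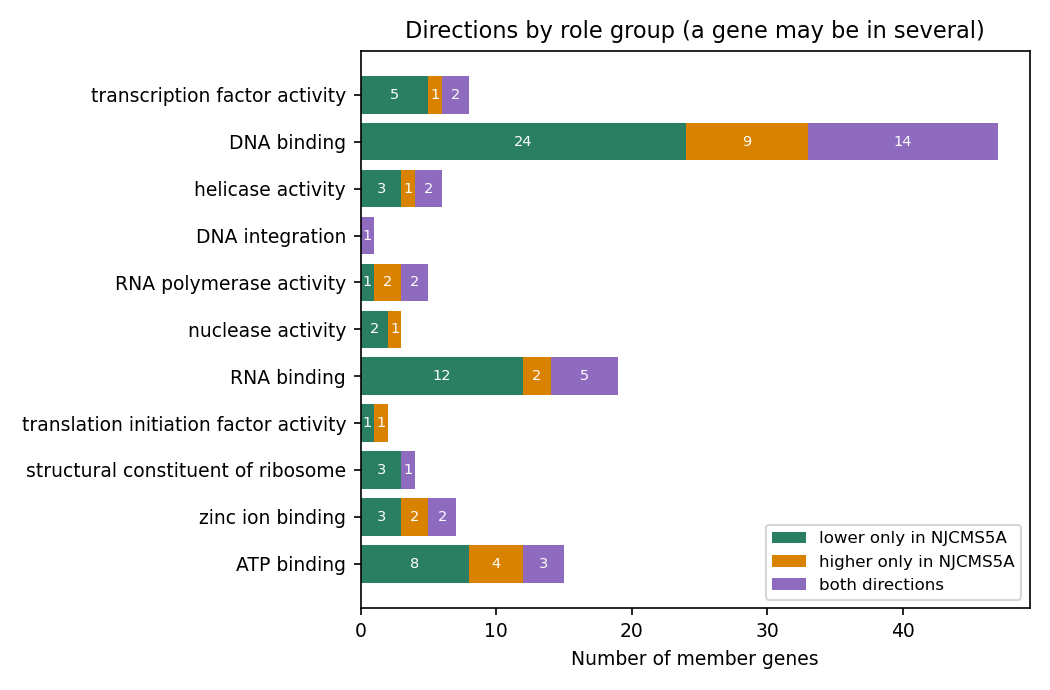
Number of nucleic acid binding genes in each role group of the GO table (horizontal axis), split into genes whose DMRs were all lower in NJCMS5A, all higher in NJCMS5A, or of both directions. A gene may stand in several groups. Hypo-methylated genes are the largest class in DNA binding (24 of 47) and RNA binding (12 of 19), and RNA polymerase activity has 1 hypo-methylated gene of 5.

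Transcription factor activity was listed for 8 members, proteins that bind DNA and set the transcription of other genes. Of these, 5 were hypo-methylated in NJCMS5A, 1 was hyper-methylated and 2 had both directions. On chromosome 8 of the Williams 82 genome, a DMR at 8335216 to 8336649 in the promoter of Glyma.08G108600 had a level of 1.17% in NJCMS5A and 11.2% in NJCMS5B. Glyma.19G084800, which is also listed under cell cycle, had 1.64% in NJCMS5A and 12.4% in NJCMS5B in its promoter. Both promoters were nearly free of methylation in NJCMS5A. On scaffolds, Glyma.U018000 had a DMR of 2899 bp from promoter to intron with 3.19% in NJCMS5A and 19.4% in NJCMS5B, the largest decrease of this group that passed the filter on cytosines and depth. In Glyma.U039200, a DMR of exons and introns had 0.322% in NJCMS5A and 26.9% in NJCMS5B. Sigma factor genes, known from bacteria and plastids as the part of RNA polymerase that recognises promoters, were Glyma.15G082900 and Glyma.U027500. The DMR annotated to Glyma.15G082900 had 3.43% in NJCMS5A and 22.9% in NJCMS5B. The one hyper-methylated gene was Glyma.U018600, whose promoter had 20.2% in NJCMS5A (19.3 to 21.2) and 2.29% in NJCMS5B (1.98 to 2.65), a difference of 17.9 points (16.96 to 18.95).

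RNA polymerase activity was listed for 5 members, as part of the enzymes that copy DNA into RNA. Of these, 1 was hypo-methylated in NJCMS5A, 2 were hyper-methylated and 2 had both directions. Glyma.07G125300 is described as nuclear RNA polymerase C2. It had 2 intron DMRs on chromosome 7, at 14958483 to 14959776 and at 14959883 to 14959972, separated by 106 bp. The longer one had 17.3% in NJCMS5A and 7.01% in NJCMS5B, and the shorter one, with only 25 cytosines, had 19.9% in NJCMS5A and 7.55% in NJCMS5B. Both were higher in NJCMS5A. Glyma.U034000, described as nuclear RNA polymerase C1, had 5 DMRs between 138615 and 171411 of scaffold_32. Its DMR from promoter to exon had 22.4% in NJCMS5A and 4.37% in NJCMS5B, whereas its last DMR, in exon and 3′UTR, had 0.177% in NJCMS5A and 10.6% in NJCMS5B. Of its 5 DMRs, 3 were lower and 2 higher in NJCMS5A, and its level with all calls pooled was 8.47% in NJCMS5A and 12.9% in NJCMS5B. RNA polymerase C1 and C2 are the large subunits of RNA polymerase III, which makes small RNAs such as tRNAs. In Glyma.U030600 a DMR of promoter and exon had 11.7% in NJCMS5A and 0.631% in NJCMS5B. The hypo-methylated gene was Glyma.08G241400, which is also listed for RNA methyltransferase activity, with 8.57% in NJCMS5A and 18.6% in NJCMS5B in the promoter. Glyma.U040800 had a DMR with 11.8% in NJCMS5A and 0.666% in NJCMS5B, and 80 bp further a promoter DMR with 5.28% in NJCMS5A and 42.6% in NJCMS5B. Its depth was 65.4 in NJCMS5A and 11.6 in NJCMS5B over the first DMR, and 63.7 in NJCMS5A and 13.2 in NJCMS5B over the second. The part of depth in these levels was not tested.

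Members with terms of chromatin, DNA replication or DNA repair are given next, with no count, since they were not among the role groups. The DMR shared by Glyma.08G075600 and Glyma.08G075700 on chromosome 8, at 5787124 to 5788218, had the largest difference among the member DMRs of the chromosomes. Its level was 15.9% in NJCMS5A (14.4 to 17.6) and 34.5% in NJCMS5B (32.7 to 36.4), a difference of -18.6 points (-21.0 to -16.1). Glyma.08G075600 is listed for DNA methylation and for methyltransferase activity and the DMR overlapped its promoter, 5′UTR, exon and intron. Glyma.08G075700, a zinc ion binding gene, had it in its promoter. The lowest level among the member DMRs of the chromosomes was in the promoter of Glyma.07G272300, which is listed for kinetochore assembly, the building of the structure that attaches chromosomes to the spindle. At 44447024 to 44448720 of chromosome 7 it had 0.222% in NJCMS5A and 10.7% in NJCMS5B. Glyma.04G074700, a DNA polymerase gene, had 0.385% in NJCMS5A and 10.9% in NJCMS5B in its promoter. Another gene with DNA polymerase terms, Glyma.10G248800, had 13.3% in NJCMS5A and 26.6% in NJCMS5B in its promoter. The study describes this gene as a methyltransferase. Glyma.15G187700, which has terms of DNA polymerase, exonuclease and receptor kinase activity, went the other way. Its level was 16.7% in NJCMS5A and 6.67% in NJCMS5B, at a depth of 85.5 in NJCMS5A and 210 in NJCMS5B, both far above the median.

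On scaffolds, Glyma.U043500, which is listed for the nucleosome and for nucleosome assembly, had a DMR of 4378 bp with 5.01% in NJCMS5A and 33.7% in NJCMS5B. Its depth was 12.5 in NJCMS5A and 30.9 in NJCMS5B. Mismatch repair, which corrects errors of replication, was listed for Glyma.U031800 and Glyma.U032000, and both were hypo-methylated. The DMRs of Glyma.U031800 had 2.12% and 8.51% in NJCMS5A, against 12.4% and 19.1% in NJCMS5B. In Glyma.U032000 the level was 3.49% in NJCMS5A and 29.6% in NJCMS5B, on only 60 cytosines. Glyma.U012600, which is listed for damaged DNA binding and nucleotide-excision repair, had 15.3% in NJCMS5A and 0.813% in NJCMS5B in its promoter. Glyma.U027200, described as chromatin remodeling 42 and placed in the homologous recombination pathway, had 10.9% in NJCMS5A and 0.68% in NJCMS5B in its promoter. Topoisomerases relieve the twisting of DNA, and both genes with this activity had a hypo-methylated DMR. The DMR of Glyma.05G210500 had 5.62% in NJCMS5A and 15.9% in NJCMS5B. Glyma.U026700, with topoisomerase II terms, had 4.67% in NJCMS5A and 15.1% in NJCMS5B over 3600 bp, and 10 bp further a promoter DMR of 386 bp with 13.9% in NJCMS5A and 0.249% in NJCMS5B.

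Helicases unwind DNA or RNA. Of the 6 members with helicase activity, 3 were hypo-methylated in NJCMS5A, 1 was hyper-methylated and 2 had both directions. The largest difference was in the DMR annotated to Glyma.14G114400, with 7.77% in NJCMS5A and 31.2% in NJCMS5B, a difference of -23.5 points (-25.04 to -21.9). On chromosomes, the promoter of Glyma.06G202200 had 4.10% in NJCMS5A and 14.4% in NJCMS5B. A DMR of promoter and exon in Glyma.18G186900 had 2.74% in NJCMS5A and 12.8% in NJCMS5B. Both of these differences were close to 10 points. The RNA helicase gene Glyma.U032700 had 14.6% in NJCMS5A and 3.22% in NJCMS5B in 1 DMR. In its other DMR, which reached the promoter, it had 4.33% in NJCMS5A and 16.5% in NJCMS5B. Nuclease activity was listed for 3 members, which were Glyma.10G248800 and Glyma.15G187700 with the polymerase terms given above and Glyma.07G080000, a ribonuclease H gene that cuts RNA paired to DNA. The DMR annotated to Glyma.07G080000 had 6.79% in NJCMS5A and 21.3% in NJCMS5B. DNA integration was listed for 1 member, Glyma.U023300, which had 3 DMRs. Its promoter DMR had 18.6% in NJCMS5A and 41.2% in NJCMS5B, and the next DMR, after 427 bp, had 38.4% in NJCMS5A and 18.4% in NJCMS5B. The third had 26.9% in NJCMS5A and 9.42% in NJCMS5B. Telomere maintenance was listed for 6 DMGs, and 0 of them were members.

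**Figure D3:**
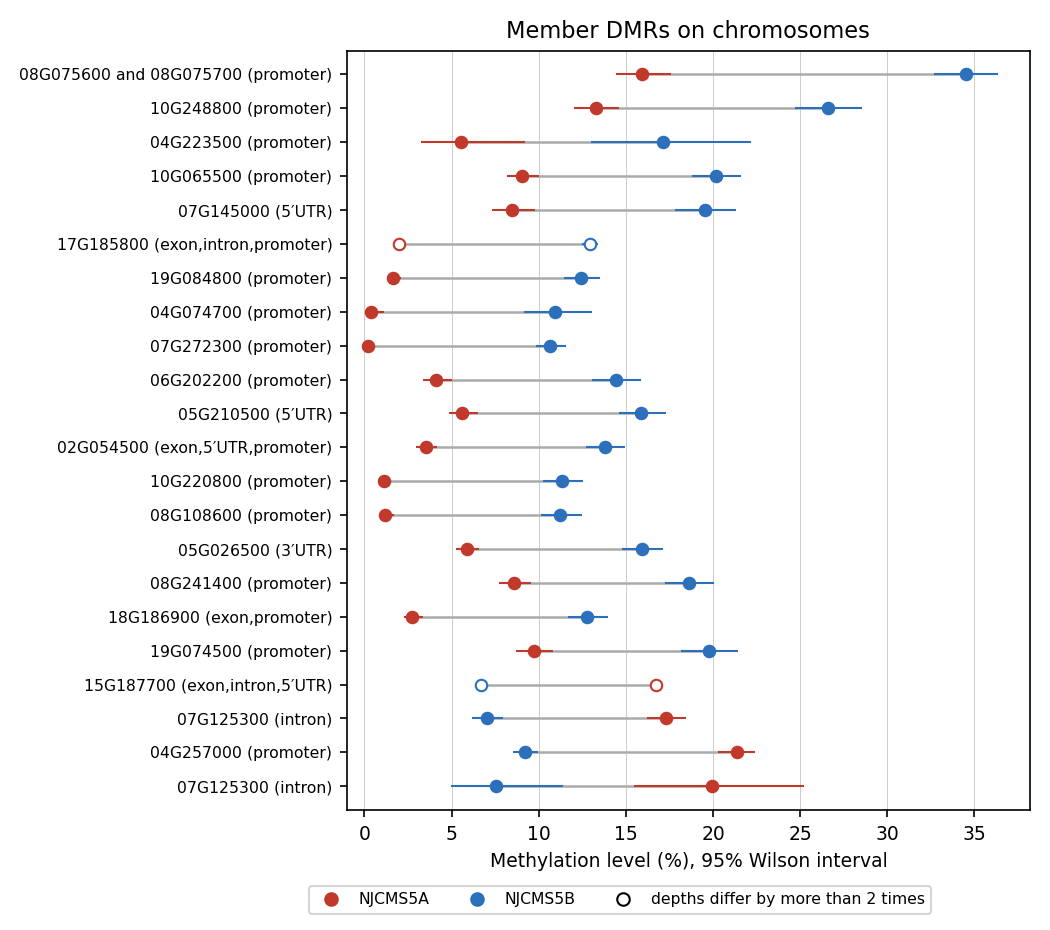
Methylation level (%, horizontal axis) in NJCMS5A (red) and NJCMS5B (blue) of the 22 member DMRs on chromosomes, 1 line per DMR with its functional region, ordered by the difference. Whiskers are 95% Wilson intervals of the calls, and open circles mark DMRs whose depths differ by more than 2 times. In 18 DMRs NJCMS5A lies left of NJCMS5B, and in the 4 at the bottom it lies to the right.

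Among the RNA binding members, 12 of 19 genes were hypo-methylated (63.2%, beside 57.9% of all DMGs). The largest difference of all member DMRs that were lower in NJCMS5A was in Glyma.U009100, placed in the ribosome pathway. Its DMR of 783 bp on scaffold_2080, at 2369 to 3151, covered its exon, intron and both UTRs and had 0.254% in NJCMS5A (0.223 to 0.289) and 45.8% in NJCMS5B (45.4 to 46.3). The depth was 530 in NJCMS5A and 289 in NJCMS5B, the highest of any member DMR in either library. The pseudouridine synthase gene Glyma.U039500, whose kind of enzyme modifies uridines in RNA, had 0.804% in NJCMS5A and 36.6% in NJCMS5B from promoter to intron, at ordinary depths of 10.5 in NJCMS5A and 11.1 in NJCMS5B. Translation initiation factors bring the ribosome to the start of a message, and the 2 members of this kind differed in direction. The promoter of Glyma.U017100 had 11.9% in NJCMS5A and 1.80% in NJCMS5B, whereas the DMR of Glyma.U037300 had 2.92% in NJCMS5A and 17.6% in NJCMS5B. Structural constituent of ribosome was listed for 4 members, of which 3 were hypo-methylated and Glyma.U034000 had both directions. In this list, Glyma.U023100 had 0.382% in NJCMS5A and 15.9% in NJCMS5B in its promoter. Glyma.17G185800, described as NADH dehydrogenase 5B and listed for rRNA binding, had 1.97% in NJCMS5A and 12.9% in NJCMS5B on chromosome 17, at a depth of 178 in NJCMS5A and 30.5 in NJCMS5B. The part of this gap in depth in the levels was not tested.

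Glyma.U006800 and Glyma.U008400 are both described as carboxyl terminus of HSC70-interacting protein and are listed for mRNA export. Glyma.U006800 was hypo-methylated, with 21.7% in NJCMS5A and 46.5% in NJCMS5B, at a depth of 10.3 in NJCMS5A and 55.9 in NJCMS5B. In Glyma.U008400 the first DMR had 8.96% in NJCMS5A and 21.7% in NJCMS5B. The second, 4 bp further, had 52.3% in NJCMS5A (49.3 to 55.3) and 5.90% in NJCMS5B (4.88 to 7.12), which was the largest increase of any member at 46.4 points (43.1 to 49.6). These genes with the same description therefore did not share 1 pattern. Glyma.05G005200, described as a putative polyribonucleotide nucleotidyltransferase of the RNA degradation pathway, was the hyper-methylated RNA binding gene besides Glyma.U017100, with 24.9% in NJCMS5A and 10.6% in NJCMS5B. On chromosomes, the DMR of Glyma.02G054500, which covered promoter, 5′UTR and exon, was lower in NJCMS5A by 10.25 points. The promoter DMR of Glyma.19G074500 was lower by 10.03 points. The DMR annotated to Glyma.07G145000, with adenosine deaminase terms, had 8.46% in NJCMS5A and 19.5% in NJCMS5B. In the study's own check by bisulfite sequencing of clones, a region inside this DMR had the opposite direction, with a higher level in NJCMS5A. The clones also covered regions inside the DMRs of Glyma.07G272300 and Glyma.10G248800 and the first DMR of Glyma.U013000. There they had the same direction as the levels given here.

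Further DNA binding genes had no narrower role in the lists, apart from Glyma.04G223500, which was also listed for zinc ion binding. On chromosomes, the promoters of Glyma.04G223500, Glyma.10G065500 and Glyma.10G220800 and the 3′UTR DMR annotated to Glyma.05G026500 were lower in NJCMS5A by 10.1 to 11.6 points. In the promoter of Glyma.10G220800 the level was 1.13% in NJCMS5A and 11.3% in NJCMS5B. The DMR of Glyma.04G223500 held 28 cytosines and failed the test with each cytosine counted 1 time (adjusted p = 0.439 by the two-sided Fisher's exact test). The promoter of Glyma.04G257000 was the only promoter on a chromosome with a higher level in NJCMS5A, at 21.3% in NJCMS5A and 9.20% in NJCMS5B (52329133 to 52331120 of chromosome 4). Among the scaffold genes, Glyma.U013000 is named AGAMOUS, after the MADS-box gene that specifies stamens and carpels in Arabidopsis. It had 14.9% in NJCMS5A and 4.44% in NJCMS5B in its first DMR. Its second DMR, of 81 bp and 13 cytosines in the promoter, had 20.4% in NJCMS5A and 6.62% in NJCMS5B, and it too did not pass with each cytosine counted 1 time (adjusted p = 0.606 by the same Fisher's exact test). Glyma.U024400 and Glyma.U024500, both listed for protein dimerization and DNA binding, had a hypo-methylated DMR each on scaffold_22. Glyma.U024400 had 3.95% in NJCMS5A and 16.7% in NJCMS5B, and Glyma.U024500 had 0.317% in NJCMS5A and 10.5% in NJCMS5B, followed with no gap by a promoter DMR with 10.8% in NJCMS5A and 0.600% in NJCMS5B.

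Zinc ion binding was listed for 7 members, of which 3 were hypo-methylated in NJCMS5A, 2 were hyper-methylated and 2 had both directions. Zinc fingers are a common fold for holding DNA or RNA. Glyma.U020100, which also has terms of vesicle transport from the endoplasmic reticulum, held both the largest decrease and the largest increase of this group. In order of position, its 4 DMRs had 1.10%, 14.3%, 1.98% and 23.1% in NJCMS5A, against 11.3%, 0.405%, 21.8% and 0.671% in NJCMS5B. The levels of both libraries thus alternated, and where 1 library was methylated the other was at or under 1.98%. The last DMR lay in the promoter and differed by 22.4 points (21.4 to 23.5). The 2 hyper-methylated genes of the group were Glyma.U014400, with 19.5% in NJCMS5A and 8.57% in NJCMS5B, and Glyma.U015900, with 25.8% in NJCMS5A and 12.9% in NJCMS5B, both in the promoter. ATP binding was listed for 15 members, of which 8 were hypo-methylated, 4 were hyper-methylated and 3 had both directions.

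**Figure D4:**
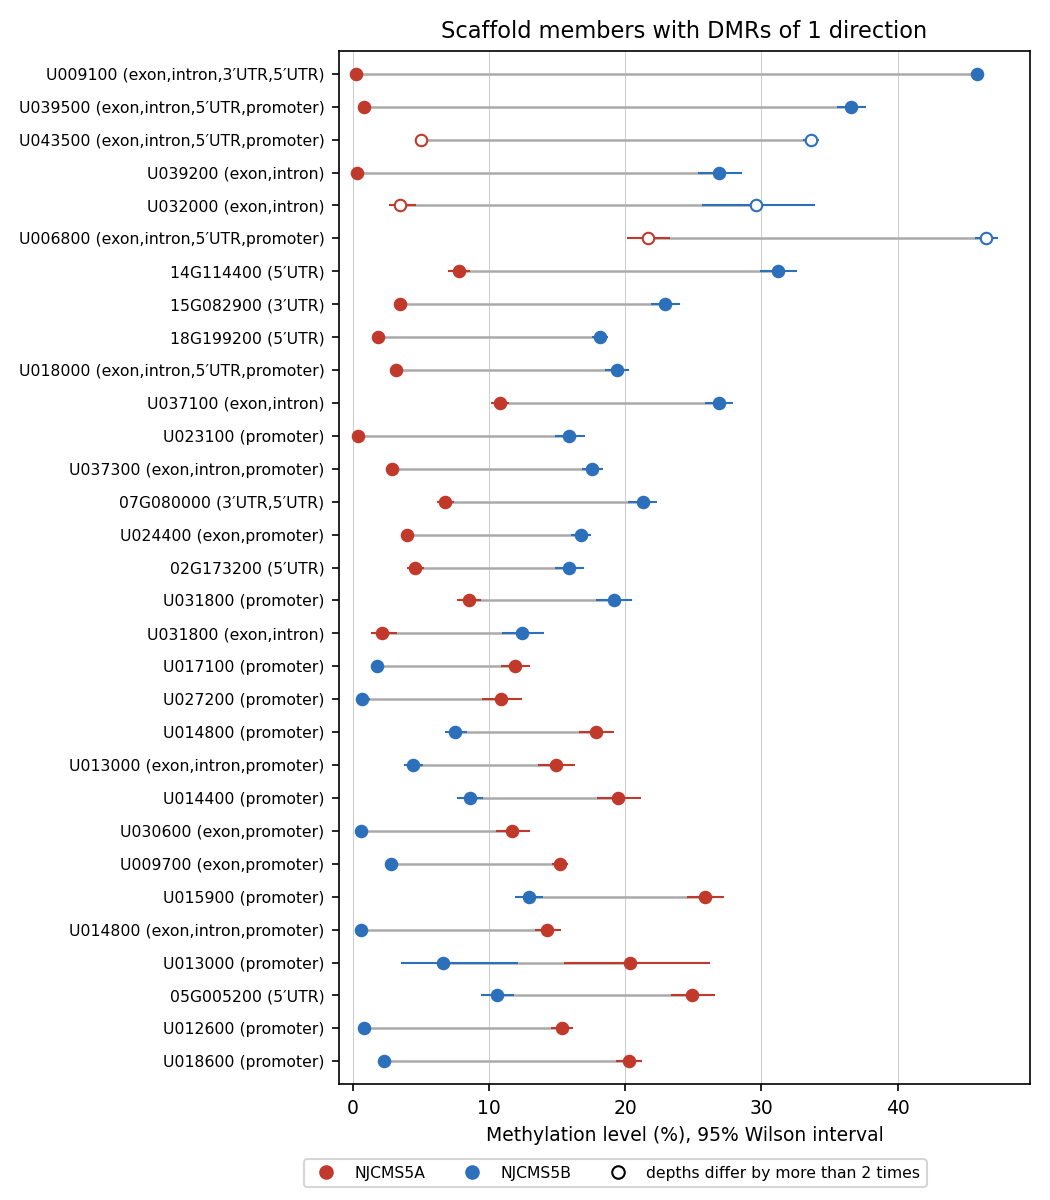
Methylation level (%, horizontal axis) in NJCMS5A (red) and NJCMS5B (blue) of the DMRs of the 28 members on scaffolds whose DMRs all had 1 direction, 1 line per DMR with its functional region. Whiskers are 95% Wilson intervals of the calls, and open circles mark DMRs whose depths differ by more than 2 times. In the upper lines NJCMS5A lies left of NJCMS5B, which reaches 46.5%, and in the lower lines NJCMS5A lies to the right.

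Most genes with several DMRs had both directions, as did most such DMGs at large. Of the 69 genes, 46 had 1 DMR and 23 had 2 or more (33.3%, beside 30.7% of DMGs), and 19 of these 23 had both directions (82.6%, beside 77.9%). All 19 lay on scaffolds. Among 41 pairs of neighbouring DMRs of 1 gene, 31 had opposite directions (75.6%, beside 68.2% over all DMGs). The gap between neighbours had a median of 427 bp and ranged from 0 to 27337 bp. Opposite directions were found in 21 of 25 pairs with a gap under 1000 bp (84.0%, 65.3 to 93.6, beside 67.4% over all DMGs) and in 10 of 16 with a longer gap (62.5%, 38.6 to 81.5, beside 69.4%). Pairs of 1 gene can share a DMR and are not independent, so these intervals do not compare the gaps. The difference between the gaps was not tested. The authors called DMRs with a sliding window, and how far this sets the order of directions in touching DMRs was not tested.

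The gene with the most DMRs was Glyma.U027500, with 6, listed for sigma factor activity. Along the gene, they had 17.9%, 3.18%, 18.8%, 8.53%, 17.1% and 3.40% in NJCMS5A, against 3.91%, 17.4%, 5.97%, 19.02%, 5.43% and 13.8% in NJCMS5B. Each DMR thus had the direction opposite to the one before it, and over the whole gene the pooled level differed by only 2.67 points. Glyma.U013600, which has heme and iron binding terms beside DNA binding, had 5 DMRs, of which 3 were higher and 2 lower in NJCMS5A. Its DMR of 25 cytosines failed the test with each cytosine counted 1 time (adjusted p = 0.367 by the two-sided Fisher's exact test). Glyma.U023700 also had 5 DMRs, with 15.6%, 4.96%, 28.3%, 19.5% and 5.88% in NJCMS5A and 1.90%, 18.7%, 14.0%, 7.87% and 22.6% in NJCMS5B. The last of these reached the promoter. In Glyma.U014100, a nuclear zinc ion binding gene by its terms, 3 of 4 DMRs were lower in NJCMS5A, and the one that reached the promoter had 4.08% in NJCMS5A and 23.0% in NJCMS5B.

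In 1 transcription factor gene the 2 directions fell in different functional regions. Glyma.U009200 had 12.6% in NJCMS5A and 0.573% in NJCMS5B in the promoter. In its exons, introns and 3′UTR it had 6.32% in NJCMS5A and 21.3% in NJCMS5B over 4397 bp. In other genes the promoter held both directions. Glyma.U010700 had 33.6% in NJCMS5A and 15.9% in NJCMS5B in a promoter DMR, and 12 bp from it a DMR from promoter to intron with 9.78% in NJCMS5A and 20.1% in NJCMS5B. Glyma.U015800 had 0.218% in NJCMS5A and 13.1% in NJCMS5B in a DMR of promoter, exon and intron, and 20.04% in NJCMS5A and 9.59% in NJCMS5B in a DMR of the promoter alone. In Glyma.U005100, listed for release factor activity, adjoining promoter DMRs had 20.2% and 14.3% in NJCMS5A, against 9.99% and 30.2% in NJCMS5B, and the first of them did not pass with each cytosine counted 1 time (adjusted p = 0.119 by the two-sided Fisher's exact test). Exons and introns could hold both directions as well. In Glyma.U026300, DMRs of exon and intron had 22.6% and 15.2% in NJCMS5A, against 10.4% and 41.7% in NJCMS5B. Glyma.U042000 likewise had 13.3% and 2.56% in NJCMS5A, against 2.51% and 19.1% in NJCMS5B. When the calls of all DMRs of a gene were pooled, 12 of the 19 genes were lower in NJCMS5A and 7 were higher, and in 12 the pooled levels differed by less than 5 points.

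**Figure D5:**
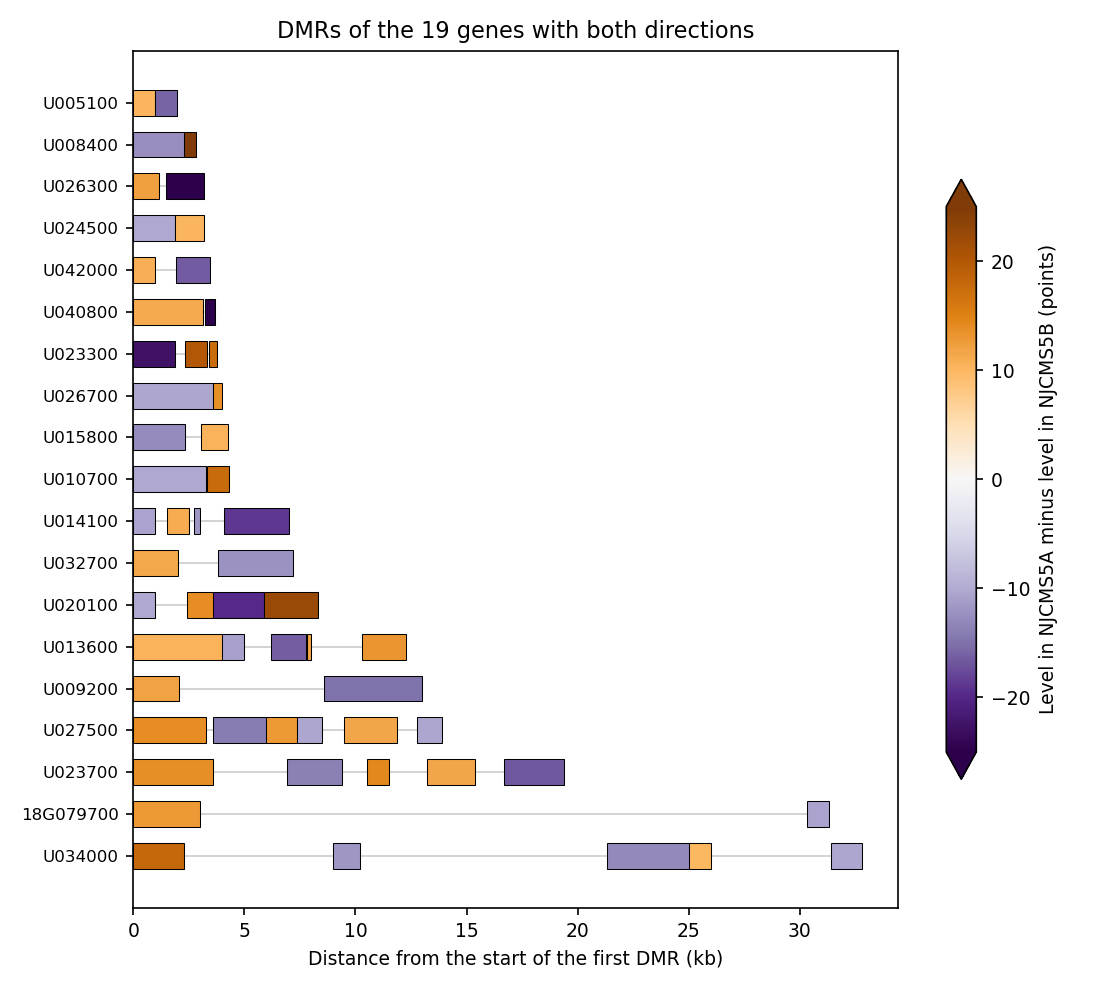
DMRs of the 19 nucleic acid binding genes with both directions, 1 line per gene, placed by their distance in kb from the start of the first DMR and drawn to scale. Orange marks a higher and purple a lower level in NJCMS5A, and the colour scale ends at 25 points. In Glyma.U027500 and Glyma.U020100 the colours alternate from DMR to DMR.

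For 10 members the DMR lay on another sequence than the one in the gene's name, in 11 of the 110 pairs (10%, beside 11.4% over all DMGs). These were Glyma.02G173200, Glyma.05G005200, Glyma.05G026500, Glyma.05G210500, Glyma.07G080000, Glyma.07G145000, Glyma.14G114400, Glyma.15G082900, Glyma.18G079700 and Glyma.18G199200. All 11 pairs were annotated to UTRs alone, 8 of them on scaffolds, and 9 were lower in NJCMS5A. Among all DMGs with a 5′UTR DMR 83.2% had a lower level there, and among those with a 3′UTR DMR 79.4%. The members thus stood near the DMGs at large in direction. The share annotated to UTRs alone was not counted over such pairs of all DMGs. The longest member DMR, of 6088 bp on scaffold_44, was of this kind and had 1.86% in NJCMS5A and 18.1% in NJCMS5B for Glyma.18G199200. For Glyma.18G079700, which is listed for helicase activity, the DMRs lay 27337 bp apart and had 17.6% and 2.87% in NJCMS5A, against 4.69% and 13.5% in NJCMS5B. How the annotation joined these DMRs to the genes is not given in the sources used here, and the values above for these 10 genes describe the DMR and not a region shown to belong to the gene.

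In 8 of the 109 DMRs the depths of the libraries differed by more than 2 times (7.34%, beside 11.4% of all DMRs and 5.83% of those annotated to a gene). They belonged to Glyma.15G187700, Glyma.17G185800, Glyma.U006800, Glyma.U013600, Glyma.U032000, Glyma.U040800 and Glyma.U043500, with the 2 DMRs of Glyma.U040800 both among them. The largest gap was in Glyma.17G185800, where NJCMS5A was 5.84 times as deep. The part of depth in the levels of these DMRs was not tested.

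The 14 members outside the rule for named genes had 16 DMRs. In 8 of these genes the levels were lower in NJCMS5A, by 10.3 to 26.6 points, and in 6 they were higher, by 10.3 to 17.9 points. The hypo-methylated ones were Glyma.02G173200, Glyma.15G082900, Glyma.18G199200, Glyma.U024400, Glyma.U031800, Glyma.U032000, Glyma.U037100 and Glyma.U039200. The hyper-methylated ones were Glyma.U009700, Glyma.U014400, Glyma.U014800, Glyma.U015900, Glyma.U018600 and Glyma.U030600. Values of these genes given above were chosen after they had been seen. In Glyma.U014800, a protein kinase gene by its terms, a promoter DMR had 17.8% in NJCMS5A and 7.51% in NJCMS5B. Its other DMR, of promoter, exon and intron, had 14.3% in NJCMS5A and 0.620% in NJCMS5B.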

How the data were processed

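The samples were grouped by their labels, 1 library of pooled flower buds for NJCMS5A and 1 for NJCMS5B. The authors aligned the reads with Bismark 0.12.5 to the Williams 82 genome and called DMRs with swDMR in sliding windows, by a Fisher test on this contrast. Positions are those of the deposited tables, whose base of counting is not given in the sources used here. The deposited methylation level is a fraction, the methylated share of the calls of a DMR, with no correction for unconverted cytosines. The deposited coverage signal is a depth averaged over the cytosines of a DMR, unscaled between libraries. The deposited count of cytosines goes with each DMR. The authors' own p-values, ratios and differences of DMRs and their GO and KEGG p-values hold their comparisons and were not used. From the GO and KEGG tables, only the gene lists were taken.

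Calls were recovered as level times depth times cytosines, and this was whole to within 0.01 in all 3527 DMRs. Each DMR was tested by Fisher's exact test (two-sided), adjusted over the 3527 by the Benjamini-Hochberg method, and the procedure was tested on simulated data. The simulated calls were drawn independently of each other. The simulation therefore checks the computation and does not cover the dependence of neighbouring calls of a read. Tools were pandas 2.3.3, scipy 1.17.1, matplotlib 3.10.9 and numpy 2.4.6 under Python 3.11.15. The precision of a difference was a median of 1.32 points to either side, for counting error only. Lists were described by counts, with no test. Members and lists were chosen with earlier results of these data known. Named genes were all members on chromosomes, those with both directions, those the study describes, and, where each library had a depth of 10 or more and the DMR 100 or more cytosines, the largest increase and decrease of each role group and the 5 largest of each direction in promoters. Of the 14 role terms looked for, 12 were in the table, and RNA-directed DNA polymerase and mRNA processing were not. In the RefSeq gene table given for soybean 0 members matched, so names and descriptions are those of the files and the study. Alternatives were each cytosine counted 1 time, a depth of at least 10, a difference of at least 20 points, at least 100 cytosines, chromosomes only, genes on their own sequence, depths within 2 times and calls pooled per gene.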

Additional observations from a re-analysis of the deposited data

How the results depend on the processing

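When each cytosine was counted 1 time, 104 of the 109 DMRs still passed the test. This count used the same levels, so the direction of each DMR was kept by construction. The other 5 had differences of -10.7 points in Glyma.04G223500, 12.0 in Glyma.07G125300, 11.1 in Glyma.U005100, 15.4 in Glyma.U013000 and 12.0 in Glyma.U013600, each on fewer cytosines than 100. Counts of genes by direction stayed within 1.5 times under a depth of at least 10, at least 100 cytosines, depths within 2 times and genes on their own sequence. When a difference of at least 20 points was required, fewer DMRs were kept by construction. There were then 9 hypo-methylated genes, 2 hyper-methylated genes and 1 gene of both directions, from 10 lower and 3 higher DMRs with a median difference of 26.5 points, and 6 genes with a DMR in the promoter, 5 in the 5′UTR, 9 in the exon, 9 in the intron and 1 in the 3′UTR. On chromosomes alone, there were 19 hypo-methylated genes, 3 hyper-methylated genes and 0 of both directions, from 18 lower and 4 higher DMRs with a median difference of 10.4 points, and 17 genes with a DMR in the promoter, 5 in the 5′UTR, 5 in the exon, 4 in the intron and 1 in the 3′UTR. Hypo-methylated genes on chromosomes were 2 of transcription factor activity, 14 of DNA binding, 7 of RNA binding, 1 of structural constituent of ribosome and 3 of ATP binding. Without genes named for another sequence, 16 genes rather than 24 had a 5′UTR DMR, and 6 rather than 10 had a 3′UTR DMR. With calls pooled over the gene, 48 genes were lower and 21 higher in NJCMS5A, and RNA polymerase activity had 2 lower genes. No paired analysis was possible because there was 1 library per line. With 1 library per line, no result has a replicate check in these data, and the study's clone sequencing covered only a few member DMRs.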
